A study of Rattus norvegicus with 38 samples.

Results

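The 10 genes described here are Mis18a, Cwc25, Cklf, Enpep, Ldaf1, Anks4b, Crym, Scrn1, Clec3b and Pithd1. Their lung array signal differed between 2 bred rat lines both with and without cigarette smoke. They were listed by symbol from an earlier look at the same arrays, so the line differences given for them are what chose them and carry no test here. Every probe set annotated with exactly 1 of these symbols was taken, which gave 15 probe sets for the 10 genes, of 31042 probe sets and 14217 genes on the array. A probe set is a group of short array probes read together as 1 value, and Scrn1, Clec3b and Enpep had 2 each, Cklf had 3 and the other 6 genes had 1. All 15 were kept, since no filter on low values was used. No probe sequences were at hand, so whether line variants under the probes altered any of these signals was not tested. The 6 genes with 1 probe set, Mis18a among them, have no second reading to set beside the first.

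The animals were 38 female N:NIH rats aged 34 weeks, bred selectively for high (HCR) or low (LCR) running capacity, and each array held RNA from about 25 mg of lung of 1 rat. Sham rats breathed room air and smoke rats breathed cigarette smoke on 5 days a week for 12 weeks, with 7 sham and 12 smoke animals in HCR and the same numbers in LCR. Each capacity was represented by 1 line, so running capacity and any other feature of the line cannot be told apart. The labels give each animal a number, and these run in blocks by group. What the numbers stand for is not stated.

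The genes belong to unrelated pathways. Mis18a is a subunit of the complex that prepares centromeres for loading of the centromeric histone Cenpa, and Cwc25 joins the spliceosome at the first catalytic step. Cklf is a secreted chemokine-like factor that attracts leukocytes, Enpep (glutamyl aminopeptidase) trims angiotensin peptides at the cell surface, and Clec3b (tetranectin) is a secreted protein that binds plasminogen. Ldaf1 works with seipin in lipid droplet formation, Anks4b is a scaffold of the adhesion complex between microvilli, and Crym (mu-crystallin) binds thyroid hormone in the cytosol. Scrn1 (secernin 1) takes part in regulated secretion, and Pithd1 carries a PITH domain, which it shares with the thioredoxin-like protein Txnl1.

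Array medians lay between 5.92 and 6.06 on the scale log2(intensity + 16), which is used for all differences below and understates the change of low genes. The lung label was checked with 7 surfactant and other alveolar type 2 markers, none of which lay below an intensity of 1243 on any array. Some arrays stood apart. The skeletal muscle marker mean (log2 scale) was 10.40 on HCR sham 0433, with 5.63 to 6.05 for the rest of its group, and its fat cell marker mean was 7.41, with 5.10 to 6.31 for the rest. The heart muscle marker mean was 8.26 on HCR sham 0433, with 4.83 to 7.41 for the rest of its group. It was 10.24 on LCR sham 0442, with 4.76 to 7.03 for the rest of its group. It was 7.81 to 10.03 on HCR smoke 0410, 0414, 0415 and 0417, with 4.86 to 6.85 for the rest. The smooth muscle and pericyte marker mean was 9.49 on LCR sham 0442, with 8.73 to 9.19 for the rest of its group. Between the sham groups, 5 of 7 T and NK cell markers were higher in LCR (list means 7.21 to 7.90 against 5.90 to 7.56) and 3 of 5 macrophage markers were lower (7.22 to 7.63 against 7.68 to 8.15). Also lower were 1 of 7 alveolar type 2 markers (11.87 to 12.15 against 12.05 to 12.24) and 1 of 8 smooth muscle and pericyte markers (8.73 to 9.49 against 8.44 to 9.03). Of all genes, 3.85% passed in either direction. Under smoke, where 5.18% of all genes passed, 1 of 7 T and NK cell markers was higher (6.53 to 7.61 against 6.15 to 6.95), 0 of 5 macrophage markers passed, and 2 of 7 endothelial markers (10.14 to 10.47 against 10.16 to 10.56) and 1 of 5 skeletal muscle markers (5.44 to 5.76 against 5.69 to 6.90) were lower. Their part in the line differences of the members was not tested beyond the correlations below. In whole lung, fewer cells of a type and less RNA per cell cannot be told apart.

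For 4 genes LCR was lower and for 6 it was higher, where over all genes 0.239% were lower and 0.366% higher in both line comparisons. In the fit over all probe sets, 13 of the 15 member probe sets and all 10 genes (by the probe set with the highest mean) passed the threshold in both line comparisons, against 0.512% of all probe sets and 0.605% of genes (86 of 14217), and nothing is read from this count because the rule used it. The other 2 probe sets were Cklf 1385743_at and Enpep 1368513_at. The genes are a choice among those 86 and have no cut-off. By the smaller of their 2 line differences they range from rank 1 of 14217 genes for Mis18a (1.81) to rank 141 for Pithd1 (0.29). LCR and HCR intensities did not overlap for 8 of the 15 probe sets under sham (0.751% of all probe sets) and for 6 under smoke (0.0580%). They were apart under both exposures for 4 of the 15 probe sets, those of Mis18a, Crym, Scrn1 (1398406_at) and Cklf (1387984_at), as for 0.0226% of all probe sets (7). Taken over exposures, all 19 LCR arrays and all 19 HCR arrays were apart only for Mis18a and Crym, which are the 2 such probe sets on the array (0.00644%).

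**Figure D1:**
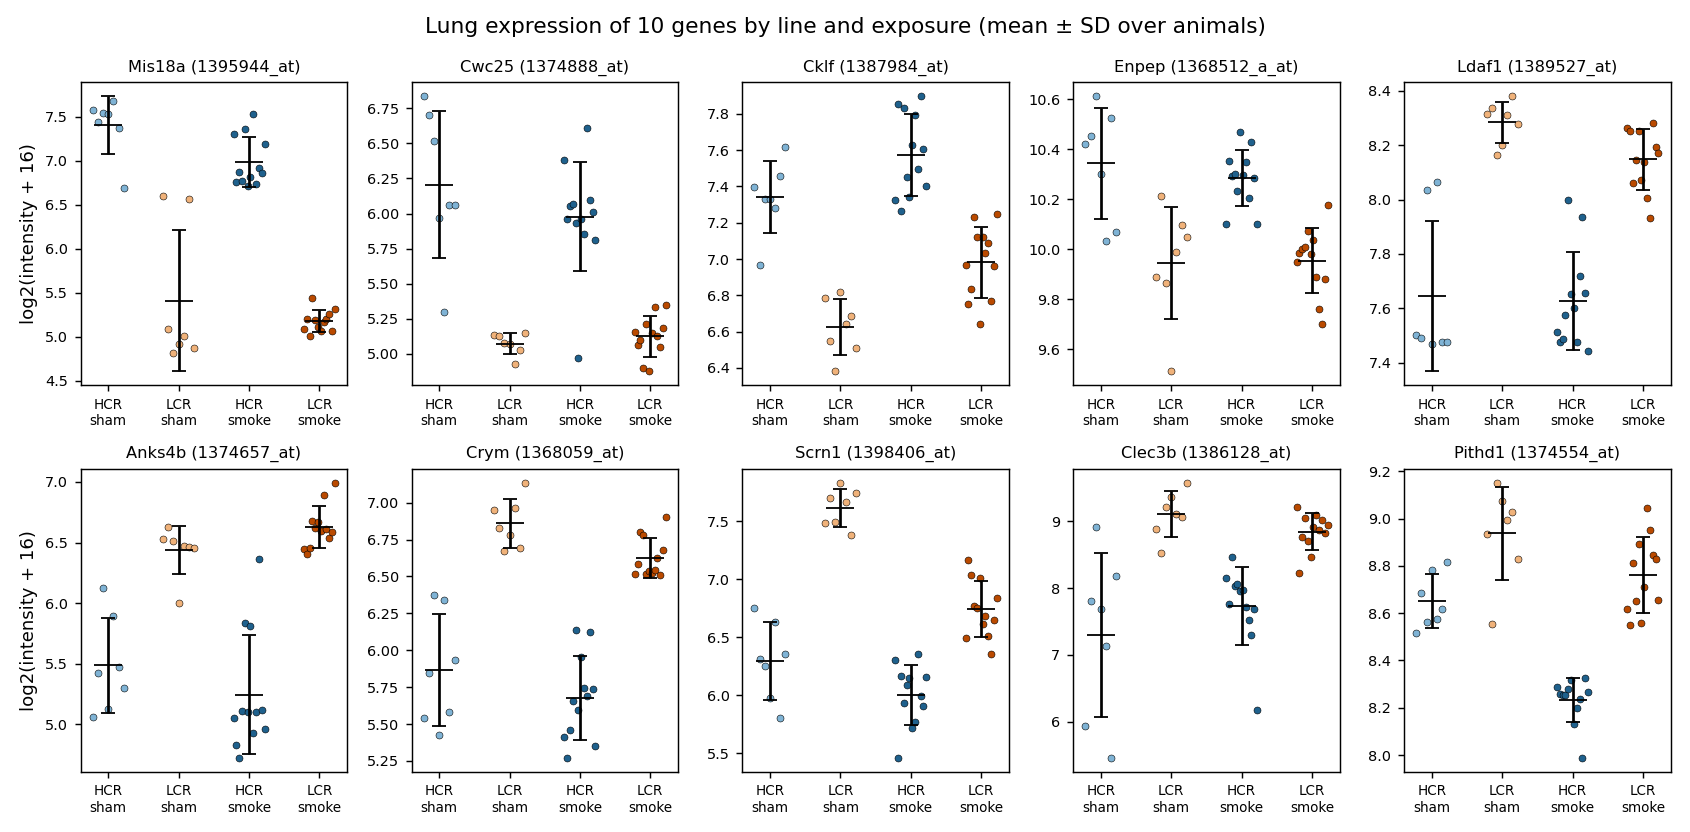
Expression of the 10 genes by group, 1 panel per gene with the probe set of the highest mean. The y axis is log2(intensity + 16), each point is 1 animal, and the bars give the mean and SD of 7 sham or 12 smoke animals. Mis18a is high on every HCR array, and 2 LCR sham animals lie between the lines. HCR sham 0432 and 0433 and HCR smoke 0412 and 0417 are the highest 2 of their groups in Ldaf1, Anks4b and Crym, with HCR smoke 0413 close to 0417 in Anks4b.

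Mis18a showed the widest difference between the lines. Its only probe set (1395944_at) ran from 87.0 through a median of 168 to 189 in HCR sham and from 88.7 through 100 to 168 in HCR smoke. In LCR it ran from 12.2 through 16.2 to 80.7 under sham and from 16.2 through 20.1 to 27.5 under smoke. No LCR array reached the lowest HCR array. The LCR minus HCR difference was -1.99 ± 0.21 (SE; 95% interval -2.42 to -1.57) under sham and -1.81 ± 0.16 (-2.13 to -1.48) under smoke. The LCR sham animals 0445 and 0446, at 80.7 and 78.2, stood far above the other 17 LCR arrays, whose highest was 27.5. A gap at least as wide as this one, 1.11 on the log2 scale, occurred among LCR arrays in 0.641% of probe sets. With LCR sham 0445 alone left out the sham difference was -2.19, and with 0446 alone left out it was -2.18. The difference without both was not estimated.

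Cwc25 was also low in LCR. The probe set 1374888_at ran from 23.4 through 50.9 to 98.4 in HCR sham and from 15.3 through 47.5 to 81.8 in HCR smoke, against 14.5 through 17.8 to 19.4 in LCR sham and 13.4 through 19.2 to 24.8 in LCR smoke. The sham groups did not overlap. Under smoke they overlapped through 1 HCR animal, 0409, at 15.3. HCR sham 0432 was also low, at 23.4, and the other 17 HCR arrays began at 40.2. The line difference was -1.13 ± 0.17 under sham and -0.85 ± 0.13 under smoke.

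Cklf was lower in LCR by 2 of its 3 probe sets, and the third was near the floor of the array. The highest, 1387984_at, had a mean of 147 ± 21.5 (SD, n = 7) in HCR sham and 83.3 ± 10.6 (n = 7) in LCR sham, and of 177 ± 30.5 (n = 12) in HCR smoke and 111 ± 16.9 (n = 12) in LCR smoke. Within each exposure every LCR animal lay below every HCR animal. Its line differences were -0.71 ± 0.10 and -0.59 ± 0.08. The probe set 1387956_s_at, of a kind that may match several transcripts, differed by -0.54 ± 0.09 and -0.42 ± 0.07. The third, 1385743_at, was near the low end of the array at 5.62 to 12.5 on all 38 arrays and differed by -0.07 ± 0.03 (95% interval -0.13 to -0.00) under sham, which did not pass the threshold in the fit over all probe sets, and by -0.13 ± 0.03 under smoke.

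Enpep was the case where probe sets parted. By 1368512_a_at, a kind that reads alternative transcripts of 1 gene, LCR was lower, at 980 ± 146 (SD, n = 7) against 1297 ± 196 (n = 7) under sham and 980 ± 88.8 (n = 12) against 1235 ± 97.7 (n = 12) under smoke, a difference of -0.40 ± 0.09 and -0.33 ± 0.07. By 1368513_at the means were 249 ± 14.0 in LCR and 248 ± 33.8 in HCR under sham, and 201 ± 16.6 and 188 ± 16.9 under smoke. The difference there was 0.01 (95% interval -0.13 to 0.15) and 0.09 (-0.01 to 0.20), so both intervals hold 0 and neither reaches the size seen with the first probe set. Whether Enpep transcript as a whole, 1 form of it, or binding of 1 set of probes differed between the lines was not tested.

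**Figure D2:**
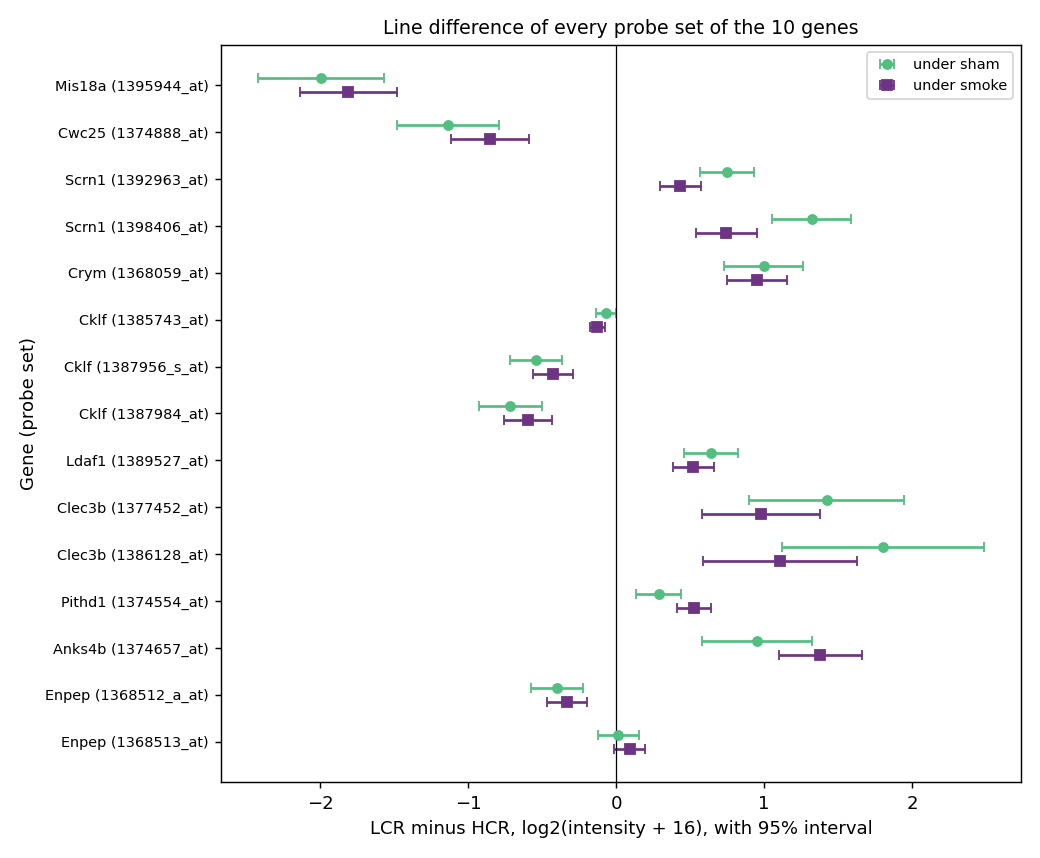
LCR minus HCR for each of the 15 probe sets, on the log2(intensity + 16) scale with 95% intervals. Circles are sham and squares are smoke. Probe sets of Scrn1, Clec3b and Cklf lie on 1 side of 0 within each gene, and the 2 of Enpep do not.

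The genes that were higher in LCR include a group from 1 place in the genome. In the order of the RefSeq gene table of assembly GRCr8, Ldaf1 and Anks4b follow each other with no measured gene between them, and Crym comes next after 1 other measured gene, Zp2. Their promoters, taken from RefSeq GRCr8, which is not the sequence of these lines, are shown for the pair that lies side by side, beside those of Mis18a, whose difference was the widest, and of Scrn1 and Cklf, whose probe sets gave the same direction. Each is the 250 bases before the annotated start, 5′ to 3′ on the gene's strand, with capitals marking a GC box (GGGCGG on either strand). The regions are chr1:183915669-183915918 (+) for Ldaf1, chr1:183978552-183978801 (+) for Anks4b, chr11:43467158-43467407 (-) for Mis18a, chr4:85024174-85024423 (-) for Scrn1 and chr19:712999-713248 (-) for Cklf.
Ldaf1: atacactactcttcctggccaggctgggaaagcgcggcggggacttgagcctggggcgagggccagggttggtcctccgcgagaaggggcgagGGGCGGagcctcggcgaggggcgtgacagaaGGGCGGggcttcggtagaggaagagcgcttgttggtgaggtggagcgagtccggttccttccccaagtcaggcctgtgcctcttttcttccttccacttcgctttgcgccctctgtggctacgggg
Anks4b: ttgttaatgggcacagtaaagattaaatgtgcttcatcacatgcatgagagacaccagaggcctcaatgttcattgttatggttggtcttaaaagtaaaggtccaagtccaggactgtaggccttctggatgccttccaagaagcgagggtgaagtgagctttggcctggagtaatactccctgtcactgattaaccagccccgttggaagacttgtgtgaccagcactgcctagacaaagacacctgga
Mis18a: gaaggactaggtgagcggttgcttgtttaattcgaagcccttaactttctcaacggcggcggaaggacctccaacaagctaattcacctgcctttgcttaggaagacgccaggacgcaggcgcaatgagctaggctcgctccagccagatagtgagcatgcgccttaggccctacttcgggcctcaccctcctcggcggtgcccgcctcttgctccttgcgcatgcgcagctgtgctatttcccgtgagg
Scrn1: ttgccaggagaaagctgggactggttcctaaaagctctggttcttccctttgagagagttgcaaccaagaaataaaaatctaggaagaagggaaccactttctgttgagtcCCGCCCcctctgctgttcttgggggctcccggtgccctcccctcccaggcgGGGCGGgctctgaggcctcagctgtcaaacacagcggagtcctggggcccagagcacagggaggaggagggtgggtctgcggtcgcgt
Cklf: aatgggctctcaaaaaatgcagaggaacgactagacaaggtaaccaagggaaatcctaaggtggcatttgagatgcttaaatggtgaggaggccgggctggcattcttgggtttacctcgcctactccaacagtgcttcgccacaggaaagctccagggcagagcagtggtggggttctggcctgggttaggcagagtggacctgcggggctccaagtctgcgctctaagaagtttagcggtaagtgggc
The Ldaf1 and Anks4b promoters differ in make-up, with 65.6% and 47.2% G or C, where the median of all promoters is 51.2%. A GC box occurs 2 times each in the Ldaf1, Scrn1 and Cwc25 windows and 1 time in that of Pithd1, with no match in those of Anks4b, Mis18a, Cklf and Enpep. Of 33469 promoter windows of the same length, 30.5% hold one. None of the 8 windows found holds CCAAT or TATAAA on either strand, which 34.0% and 12.9% of all windows do, and no matches overlapped. These are matches of letters only. Crym and Clec3b have no entry in the table.

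Ldaf1 (1389527_at) had a mean of 188 ± 42.1 in HCR sham and 296 ± 16.4 in LCR sham (SD, n = 7 each), and of 183 ± 26.5 in HCR smoke and 268 ± 21.6 in LCR smoke (n = 12 each), a difference of 0.64 ± 0.09 and 0.52 ± 0.07. Anks4b (1374657_at) had a mean of 30.4 ± 13.5 in HCR sham, 71.4 ± 10.98 in LCR sham, 24.3 ± 16.6 in HCR smoke and 83.3 ± 12.6 in LCR smoke, a difference of 0.95 ± 0.18 and 1.38 ± 0.14. Crym (1368059_at) had a mean of 44.0 ± 16.3, 101 ± 13.7, 36.1 ± 10.6 and 83.2 ± 9.64 in the same order, a difference of 0.996 ± 0.13 and 0.95 ± 0.10. The highest HCR value of Crym was 66.9 and the lowest LCR value 75.0.

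The same 4 HCR animals were high for all of these genes. HCR sham 0432 and 0433 and HCR smoke 0412 and 0417 had Ldaf1 at 229 to 252, inside the LCR range of 228 to 317, and the other 15 HCR arrays had it at 158 to 195. In Anks4b the 4 animals had 41.1 to 66.6 and the other 15 had 10.4 to 40.2, the highest of these being HCR smoke 0413. In Crym they had 53.6 to 66.9 against 22.6 to 45.9. Each of the 4 was among the top 2 of its group in Ldaf1, Anks4b, Crym and also Zp2. HCR sham 0433 is the array with high skeletal muscle, heart muscle and fat markers. HCR smoke 0417 is 1 of the 4 HCR smoke arrays with high heart muscle markers. The part of these markers in the pattern was not tested. Without HCR sham 0432 and 0433 and LCR sham 0442, the sham difference of Ldaf1 was 0.81.

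**Figure D3:**
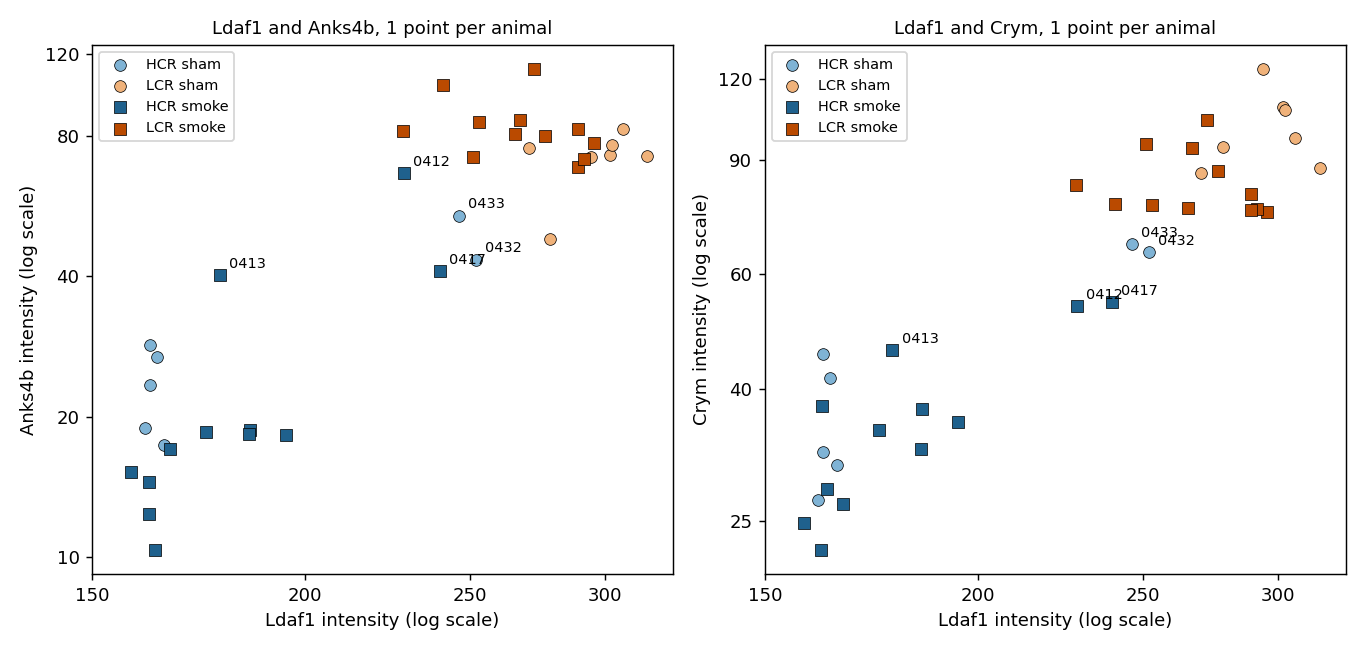
Intensities of Ldaf1 (x axis) against Anks4b (left) and Crym (right), both axes log scaled, 1 point per animal. Numbers mark the HCR animals with the highest values. HCR arrays 0432, 0433, 0412 and 0417 lie at 229 to 252 of Ldaf1, apart from the other 15 HCR arrays at 158 to 195.

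The 4 animals were set off from the other HCR arrays by the widest gap in Ldaf1, 0.22 on the log2 scale, which is common, since 24.1% of probe sets had a gap among HCR arrays at least as wide. In Crym the widest gap set off only 0432 and 0433, and in Anks4b it set off 5 arrays, the 4 and HCR smoke 0413. Over all 38 arrays, from values minus group means, Crym and Anks4b gave r = 0.76 (permutation test, adjusted p = 0.0009 over 45 pairs of members) and rho = 0.61 (adjusted p = 0.0126). Crym and Ldaf1 gave r = 0.70 (adjusted p = 0.0045) and rho = 0.47 (adjusted p = 0.0841), and Ldaf1 and Anks4b gave r = 0.66 (adjusted p = 0.00705) and rho = 0.50 (adjusted p = 0.0677) by the same permutation test, so the pairs with Ldaf1 missed the threshold by rank. Without HCR sham 0432 and 0433, the arrays farthest from the median, r was 0.70, 0.53 and 0.57 in the same order. Within HCR alone r was 0.85, 0.86 and 0.81, and within LCR alone it was 0.26, -0.06 and -0.10, so r was high in HCR and not in LCR, and whether the lines differ in it was not tested. Without HCR sham 0432 and 0433 and LCR sham 0442 the pairs with Ldaf1 no longer passed (permutation test, adjusted p = 0.0946 and 0.117), nor did they without HCR smoke 0410, 0414, 0415 and 0417 (adjusted p = 0.0659 for both). Crym and Anks4b passed in either case. Each of these sets takes out some of the 4 animals, HCR sham 0432 and 0433 in the first and HCR smoke 0417 in the second. HCR sham 0432 was not among the arrays with high markers given above.

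Zp2, a zona pellucida gene with low signal here, was singled out after its values were seen. It was at 9.63 to 15.98 in HCR sham, 15.6 to 30.7 in LCR sham, 8.67 to 14.8 in HCR smoke and 12.4 to 19.3 in LCR smoke. The line difference passed the threshold under sham, at 0.43 ± 0.06 (limma, adjusted p = 8.69e-05), and not under smoke, at 0.16 ± 0.05 (limma, adjusted p = 0.0548). Whether these differ was not tested.

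The 5 nearest measured genes on each side of every member, 81 in all and none of them members, were read as a comparison. Under sham 6 of them (7.41%) passed between lines, against 3.85% of all genes. LCR was higher for Zp2, Thumpd1 (0.17), Eef2k (0.34), Chn2 (0.53) and Tk2 (0.17) and lower for Kif15 (-0.58), with limma adjusted p-values from 8.69e-05 to 0.0451. Zp2, Thumpd1 and Eef2k are 3 of the 11 neighbours of the Ldaf1, Anks4b and Crym group. Under smoke 4 (4.94%) passed, against 5.18% of all genes, which were Hunk (0.37), Wipf3 (-0.38), Zdhhc3 (0.21) and Exosc7 (0.20), with limma adjusted p-values from 0.00614 to 0.0298. None passed under both, with an adjusted p under 0.05 in limma, where 0.605% of all genes did. These genes were named after their values were seen. The median line difference of the neighbours was -0.01 under sham and -0.00 under smoke, against -0.01 and 0.01 over all genes. With 3 and 10 genes on each side, 8.16% and 6.21% of neighbours passed under sham, and 8.16% and 8.70% under smoke.

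Scrn1 was higher in LCR by both probe sets. In HCR sham 1398406_at ran from 39.7 through 63.3 to 91.5, in LCR sham from 150 through 188 to 212, in HCR smoke from 28.0 through 49.7 to 65.7 and in LCR smoke from 65.9 through 89.2 to 127. Line groups did not overlap under either exposure, and LCR smoke reached down into the HCR sham range. The line difference was 1.32 ± 0.13 under sham and 0.74 ± 0.10 under smoke. The probe set 1392963_at, at 11.5 to 28.0 in HCR and 18.7 to 48.5 in LCR, differed by 0.75 ± 0.09 and 0.43 ± 0.07. By both, the line difference was smaller under smoke, by -0.58 ± 0.17 and -0.32 ± 0.11. This is the difference of the contrasts that chose the gene and was not tested.

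Clec3b was higher in LCR by both probe sets and had the widest spread within a group. By 1386128_at HCR sham ran from 28.0 through 190 to 465 and HCR smoke from 56.1 through 218 to 336, against 351 through 534 to 746 in LCR sham and 282 through 459 to 574 in LCR smoke. The groups overlapped under both exposures, with 5 of 7 LCR sham and 10 of 12 LCR smoke animals above every HCR animal of their exposure. HCR sham 0435 and 0436 and HCR smoke 0415 were at or below 56.1, and the next HCR array was at 125. A gap at least this wide among HCR arrays occurred in 1.40% of probe sets. The line difference was 1.80 ± 0.34 and 1.11 ± 0.26, and 1.49 to 2.07 under sham when each array was left out in turn. By 1377452_at it was 1.42 ± 0.26 and 0.98 ± 0.20.

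Pithd1 (1374554_at) had the smallest sham difference among the highest probe sets of the 10 genes. Means were 387 ± 32.5 in HCR sham and 478 ± 63.4 in LCR sham (SD, n = 7 each), and 285 ± 18.4 in HCR smoke and 420 ± 48.9 in LCR smoke (n = 12 each). The line difference was 0.29 ± 0.07 under sham, where the groups overlapped through 1 LCR animal, and 0.53 ± 0.06 under smoke, where they did not overlap.

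Smoke was not used to choose the genes, and its comparisons were tested, although they use the same arrays as the line differences. In HCR 4 of the 15 probe sets changed with smoke, 1 higher and 3 lower, where 39.7% of all probe sets changed, 17.3% higher and 22.4% lower. In LCR 6 changed, 2 higher and 4 lower, where 42.6% of all did, 19.6% higher and 23.0% lower. In each line the calls came from 4 of the 10 genes, and the members' shares did not stand above the background. The median smoke change of the 15 was -0.07 in HCR and -0.14 in LCR, against 0.00 and 0.01 over all probe sets.

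Scrn1 fell with smoke in LCR by both probe sets, with changes of -0.88 ± 0.12 for 1398406_at (limma, adjusted p = 3.06e-07) and -0.38 ± 0.08 for 1392963_at (limma, adjusted p = 0.000211). In HCR 1398406_at fell, with a change of -0.30 ± 0.12 (limma, adjusted p = 0.0427) and 1392963_at changed by -0.07 ± 0.08, which did not pass (limma, adjusted p = 0.535). The HCR call of 1398406_at was lost without any 1 of 11 arrays, HCR sham 0432, 0433, 0434, 0435 or 0438 or HCR smoke 0408, 0411, 0412, 0413, 0414 or 0418, with changes of -0.22 to -0.38 over all 38 arrays left out, and with quantile normalization (-0.25, adjusted p = 0.102) or median centring (-0.25, adjusted p = 0.0633). It was also lost without HCR sham 0432 and 0433 and LCR sham 0442 (-0.24, limma, adjusted p = 0.162) and without HCR smoke 0410, 0414, 0415 and 0417 (-0.28, adjusted p = 0.0831). Pithd1 fell in HCR, with a change of -0.42 ± 0.07 (limma, adjusted p = 7.87e-06), where every smoke animal, at 238 to 305, lay below every sham animal, at 350 to 435. In LCR it fell, with a change of -0.18 ± 0.07 (limma, adjusted p = 0.0306), with sham at 360 to 552 and smoke at 359 to 512. That LCR call was lost without LCR sham 0441, 0442, 0444 or 0446 or LCR smoke 0420, 0421 or 0423, with changes of -0.14 to -0.24, with quantile normalization (-0.15, adjusted p = 0.0668) or median centring (-0.12, adjusted p = 0.111), and without HCR sham 0432 and 0433 and LCR sham 0442 (-0.15, adjusted p = 0.0777).

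The Enpep probe set without a line difference, 1368513_at, fell with smoke in both lines, with changes of -0.37 ± 0.06 in HCR (limma, adjusted p = 1.42e-05) and -0.29 ± 0.06 in LCR (limma, adjusted p = 0.000246). The probe set with the line difference, 1368512_a_at, changed by -0.06 ± 0.08 and 0.01 ± 0.08, and neither passed (limma, adjusted p = 0.571 and 0.933). Both calls of 1368513_at held without each of the 38 arrays in turn. The probe sets thus gave different readings of the gene in the line and in the smoke comparisons. That a difference between probe sets is itself larger than error was not tested.

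Cklf rose with smoke in LCR by 2 probe sets, 1387984_at by 0.36 ± 0.09 (limma, adjusted p = 0.00241) and 1387956_s_at by 0.24 ± 0.08 (limma, adjusted p = 0.0129). In HCR 1387984_at rose by 0.23 ± 0.09 (limma, adjusted p = 0.0431), a call that was lost without any 1 of 11 arrays, HCR sham 0432, 0433, 0435, 0438 or 0439 or HCR smoke 0408, 0411, 0412, 0413, 0414 or 0418, with changes of 0.17 to 0.28, and without HCR sham 0432 and 0433 and LCR sham 0442 (0.22, limma, adjusted p = 0.109). The probe set 1387956_s_at changed by 0.12 ± 0.08 in HCR and did not pass (limma, adjusted p = 0.221), but passed with quantile normalization (0.20, limma, adjusted p = 0.0400). The third, 1385743_at, did not pass in either line (limma, adjusted p = 0.215 and 0.75), but passed in HCR with median centring (0.09, adjusted p = 0.0227).

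The other 6 genes passed in neither line. Mis18a changed by -0.42 ± 0.19 in HCR (limma, adjusted p = 0.0731) and by -0.23 ± 0.19 in LCR (adjusted p = 0.318), where LCR sham 0445 and 0446 raise the sham mean. The LCR change was -0.04 with 0445 alone left out and -0.04 with 0446 alone left out. The change without both animals was not estimated. In HCR Mis18a passed without HCR sham 0434 (-0.54, limma, adjusted p = 0.0252), HCR smoke 0418 (-0.47, adjusted p = 0.0472), LCR sham 0445 (-0.42, adjusted p = 0.0359) or LCR sham 0446 (-0.42, adjusted p = 0.0382). Cwc25 changed by -0.23 ± 0.15 in HCR (limma, adjusted p = 0.228) and passed without HCR sham 0432 (-0.38, adjusted p = 0.0273). Anks4b changed by -0.24 ± 0.16 in HCR (limma, adjusted p = 0.241) and passed without HCR smoke 0412 (-0.34, adjusted p = 0.0449), and by 0.19 ± 0.16 in LCR (adjusted p = 0.361). Crym, Ldaf1 and Clec3b gave adjusted limma p-values between 0.1 and 0.883.

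**Figure D4:**
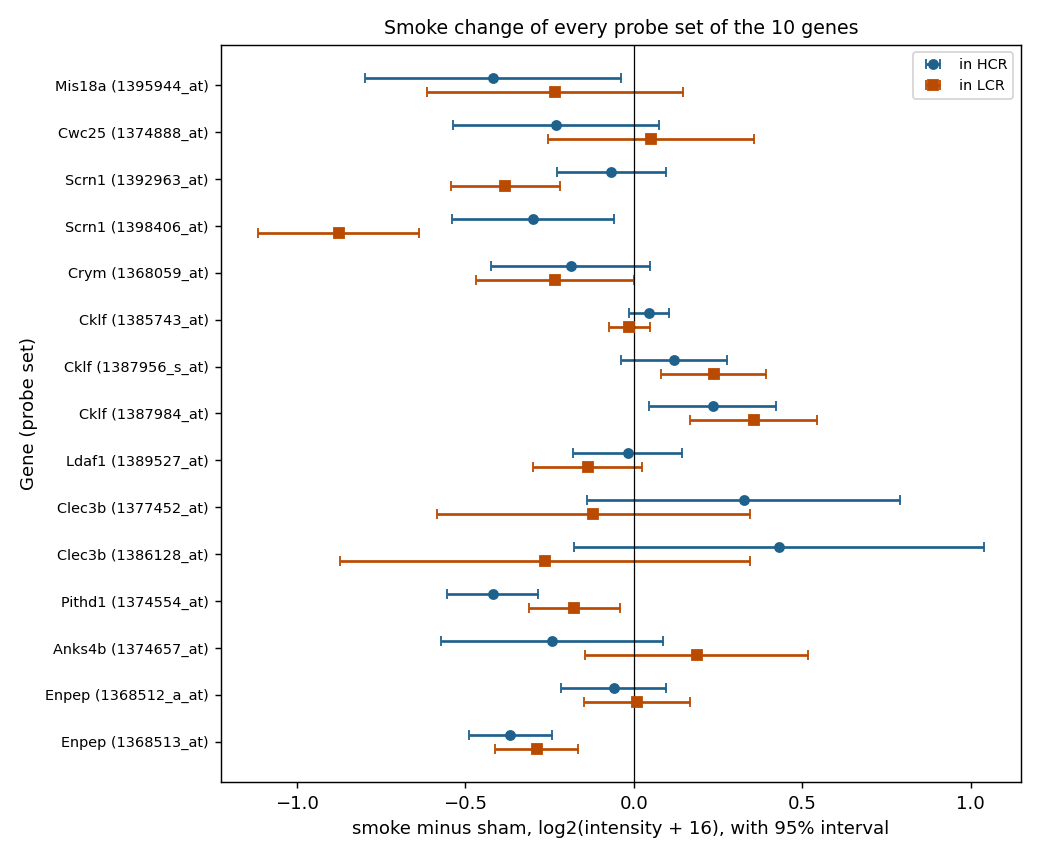
Smoke minus sham for each of the 15 probe sets, on the log2(intensity + 16) scale with 95% intervals, circles for HCR and squares for LCR. Scrn1 1398406_at shows the farthest shift below 0, at -0.88 in LCR, and the 2 probe sets of Enpep lie apart in both lines.

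Whether 2 probe sets of a gene follow each other between animals of 1 group was not used to choose the genes. Over 38 arrays, from values minus the group mean, the 2 of Clec3b gave r = 0.96 and rho = 0.98 (permutation test, adjusted p = 3e-05 and 2e-05 over 6 pairs). Those of Scrn1 gave r = 0.68 and rho = 0.69 (adjusted p = 4e-05 and 2e-05), and Cklf 1387956_s_at and 1387984_at gave r = 0.87 and rho = 0.87 (adjusted p = 3e-05 and 2e-05), where 1e-05 is the smallest raw p that 100000 permutations can give. Without the 2 arrays farthest from the median r was 0.95, 0.63 and 0.84, and within HCR and LCR alone it was 0.97 and 0.97, 0.63 and 0.78, and 0.85 and 0.89. The low Cklf probe set 1385743_at gave r = 0.38 with 1387956_s_at (permutation test, adjusted p = 0.0344; rho = 0.40, adjusted p = 0.0309) and r = 0.34 with 1387984_at (adjusted p = 0.0719; rho = 0.37, adjusted p = 0.0429). Without 2 arrays these were 0.36 and 0.38. The pair of Enpep gave r = 0.32 (permutation test, adjusted p = 0.0807) and rho = 0.22 (adjusted p = 0.177), and r was 0.03 without HCR sham 0432 and LCR sham 0442.

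**Figure D5:**
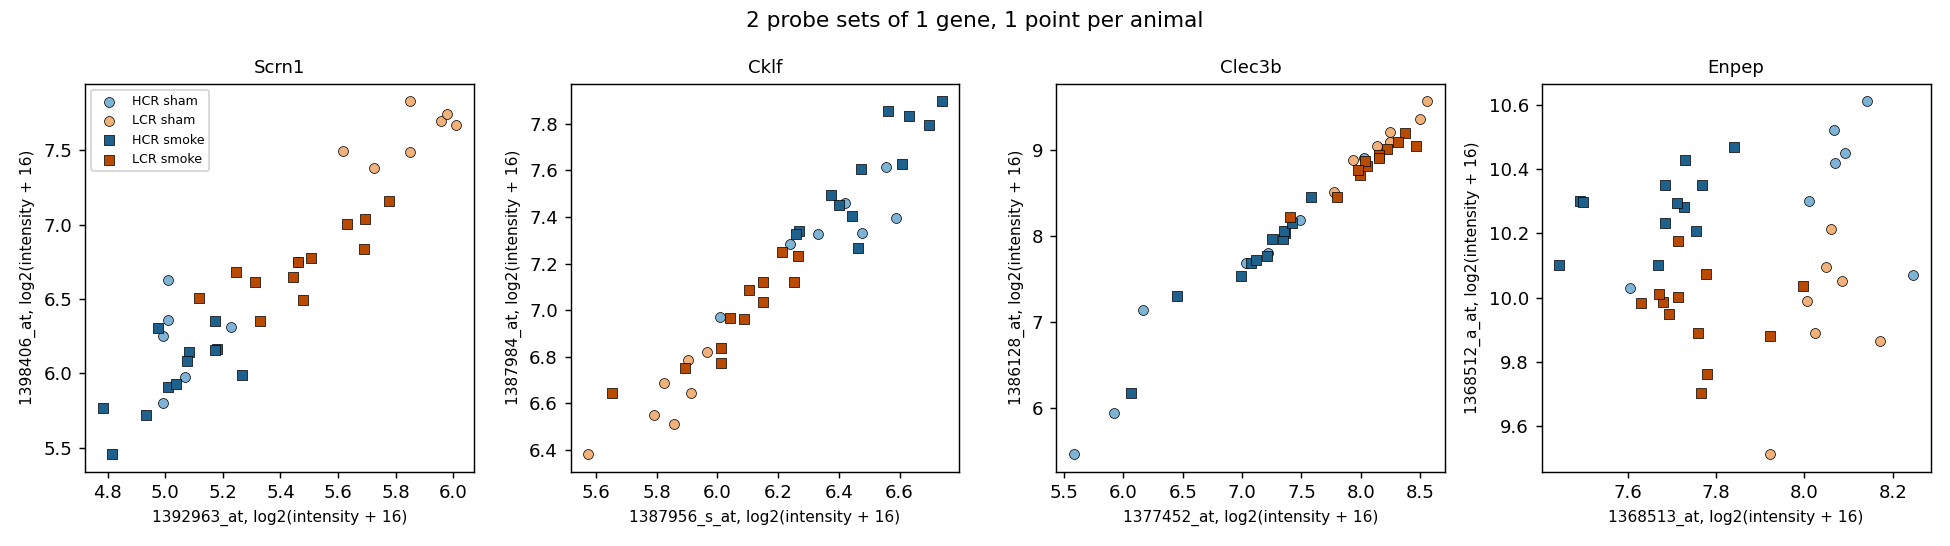
Values of 2 probe sets of the same gene for Scrn1, Cklf, Clec3b and Enpep, on the log2(intensity + 16) scale, 1 point per animal. The points of Clec3b, Cklf and Scrn1 follow a line through all groups, and those of Enpep spread, with smoke arrays to the left and LCR arrays towards the bottom.

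Of the 42 pairs of members other than those among Ldaf1, Anks4b and Crym, 0 passed by r or by rho after adjustment over all 45 pairs (permutation test), with 5 and 3 below an unadjusted p of 0.05 and r between -0.48 and 0.35. With quantile normalization 2 of them passed by r, Pithd1 and Enpep (r = -0.54, permutation test, adjusted p = 0.0276) and Scrn1 and Cklf (r = -0.47, adjusted p = 0.0401), and Pithd1 and Enpep also passed without HCR sham 0432 and 0433 and LCR sham 0442 (r = -0.54, adjusted p = 0.0308). Against 13 lists of cell type markers, 2 of 130 relations passed by r. Scrn1 went with the smooth muscle and pericyte list (r = 0.58, adjusted p = 0.0221; rho = 0.62, adjusted p = 0.0091, permutation test), with r = 0.54 without 2 arrays, 0.64 in HCR and 0.47 in LCR. That list lay at 8.73 to 9.49 in LCR sham and 7.88 to 8.62 in LCR smoke, against 8.44 to 9.03 and 8.05 to 9.19 in HCR. The top of the LCR sham range was 0442, an array that stood apart, and the rest of that group lay at 8.73 to 9.19. The part of this list in the fall of Scrn1 was not tested. Cklf went with the macrophage list (r = 0.55, adjusted p = 0.0409; rho = 0.54, adjusted p = 0.0494, permutation test), with r = 0.56 without 2 arrays, 0.54 in HCR and 0.58 in LCR. That list lay at 7.68 to 8.15 in HCR sham, 7.22 to 7.63 in LCR sham, 7.99 to 8.59 in HCR smoke and 8.02 to 8.82 in LCR smoke, so it was lower in LCR under sham and overlapped between the lines under smoke, where Cklf 1387984_at did not overlap and its other 2 probe sets did. Its part in the sham difference and in the rise of Cklf with smoke was not tested. Cklf and the smooth muscle list gave r = -0.54 (adjusted p = 0.0536) and rho = -0.55 (adjusted p = 0.0494, permutation test), with r = -0.50 without 2 arrays, -0.76 in HCR and -0.19 in LCR.

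Of 14217 genes, those most like each member in within-group variation over 38 arrays are given as a description, with the members themselves left out. Crym and Anks4b gave r = 0.76, and Crym and Ldaf1 gave r = 0.702, each above the values given below for either gene of the pair. Closest was Inafm1 for Mis18a (r = 0.72), Wfdc10a for Crym (0.700), Grifin for Ldaf1 (0.67), Sh2d2a for Anks4b (0.71) and Scrn2 for Cwc25 (0.58). It was Hdac11 for Scrn1 (0.69), Atp6ap2 for Cklf (0.72), Coro1a for Clec3b (0.59), Mier1 for Pithd1 (0.67) and Dpagt1 for Enpep (0.66). The next, in the same order, was Ccnjl (0.69), Phgdh (0.70), Sh2d5 (0.64), Lpal2 (0.68), Cct2 (0.56), Nudt2 (0.69), Eif1ad (0.69), Kdm8 (0.59), Ube2g2 (0.61) and Hagh (0.66). For Mis18a and Clec3b these values include the arrays that stand apart by a wide gap, given above.

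Of 62 measured partner genes, chosen by pathway and not by how they moved, 3 (4.84%) were lower and 0 higher in LCR under sham, against 3.85% of all genes passing. These were Scrn2, the second secernin (-0.25 ± 0.07, limma, adjusted p = 0.0272), Cmtm8 of the Cklf family (-0.23 ± 0.05, adjusted p = 0.0125), and Dgat2, which makes triacylglycerol for lipid droplets (-0.53 ± 0.14, adjusted p = 0.0295). Without HCR sham 0432 and 0433 and LCR sham 0442 the Dgat2 difference was -0.38 (limma, adjusted p = 0.111). Under smoke 2 (3.23%) were higher, the lipid droplet coat protein Plin2 (0.30 ± 0.07, limma, adjusted p = 0.013) and Bscl2, which encodes the Ldaf1 partner seipin (0.13 ± 0.04, adjusted p = 0.0416). The Bscl2 call was lost with quantile normalization (0.10, limma, adjusted p = 0.095) and median centring (0.12, adjusted p = 0.0557). No measured gene of the centromere loading (2), spliceosome (9), thyroid hormone (6), plasminogen (7), thioredoxin-like (3), brush border (4) or angiotensin (9) lists passed between lines. Under other settings 1 thioredoxin-like gene was lower under sham with quantile normalization and with median centring, 1 was higher under smoke without HCR sham 0432 and 0433 and LCR sham 0442, and 1 angiotensin gene was lower under sham with median centring. The median line difference of the 62 was -0.03 under sham and 0.00 under smoke, against -0.01 and 0.01 over all genes.

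With smoke 23 of the 62 partners changed in HCR (37.1%; 10 higher, 13 lower) and 28 in LCR (45.2%; 17 higher, 11 lower), against 46.8% and 49.5% of all genes. With median-centred arrays the split was 18 higher and 11 lower in HCR and 30 higher and 5 lower in LCR. Both other secernins fell, Scrn2 with changes of -0.40 ± 0.06 in HCR and -0.27 ± 0.06 in LCR and Scrn3 with -0.17 ± 0.05 and -0.18 ± 0.05, though the HCR call of Scrn3 was lost with quantile normalization (-0.08, limma, adjusted p = 0.131). The thyroid hormone receptor genes Thra (-0.62 ± 0.08 and -0.70 ± 0.08) and Thrb (-0.45 ± 0.07 and -0.45 ± 0.07) fell. Their list of 6 had 1 higher and 2 lower in HCR, and 0 higher and 2 lower in LCR. With median-centred arrays 2 of that list rose in HCR and 3 in LCR, and with quantile normalization 0 rose in either line. Ace, the angiotensin-converting enzyme and also an endothelial marker, fell with changes of -0.49 ± 0.06 and -0.58 ± 0.06. Of the plasminogen system, 3 of 7 rose in HCR and 5 of 7 in LCR, where 1 fell, among them the urokinase receptor Plaur (0.86 ± 0.19 and 1.78 ± 0.19) and the activator Plat (0.32 ± 0.07 and 0.41 ± 0.07). Of the spliceosome list, 4 of 9 fell in HCR and 3 of 9 in LCR and 0 rose, but in LCR 0 fell with quantile normalization and with median-centred arrays, where 1 rose, and in HCR 2 fell with either. Of the brush border list, 1 of 4 rose in HCR and 3 of 4 in LCR, with 0 and 1 under quantile normalization and 3 and 3 with median-centred arrays. Of the angiotensin list, 1 of 9 rose in each line, 2 fell in HCR and 1 fell in LCR, and with median-centred arrays 5 rose in LCR. Txnl1 rose by 0.49 ± 0.06 and 0.54 ± 0.06, where Pithd1 fell. Of the same list, Txnl4b fell in HCR, with a change of -0.13 ± 0.04 (limma, adjusted p = 0.0079), but 0 fell there with quantile normalization. Txnl4a rose in LCR by 0.23 ± 0.05 (limma, adjusted p = 0.000168). In the main setting neither Txnl4b nor Txnl4a passed in the other line. In LCR, however, all 3 genes of the list rose with quantile normalization and with median-centred arrays. In HCR 2 rose with quantile normalization, and 1 rose and 1 fell with median-centred arrays. Plin2 rose by 0.22 ± 0.08 and 0.44 ± 0.08, the HCR call being lost without HCR sham 0432 and 0433 and LCR sham 0442 (0.17, limma, adjusted p = 0.141). Dgat2 rose in LCR by 0.82 ± 0.13 and changed by 0.29 ± 0.13 in HCR, which did not pass (limma, adjusted p = 0.0683). Bscl2 fell in HCR, with a change of -0.20 ± 0.04, and changed by -0.04 ± 0.04 in LCR, which did not pass (adjusted p = 0.469). Cmtm6 rose by 0.20 ± 0.05 and 0.24 ± 0.05. Cmtm8 fell, with changes of -0.37 ± 0.05 in HCR and -0.12 ± 0.05 in LCR, the LCR call being lost with quantile normalization (-0.09, limma, adjusted p = 0.0924) and median centring (-0.06, adjusted p = 0.262). Of that family 1 of 7 rose and 1 fell in HCR, and 3 rose and 2 fell in LCR. With quantile normalization 2 rose and 1 fell in HCR, and 3 rose and 0 fell in LCR. With median-centred arrays 3 rose and 1 fell in HCR, and 4 rose and 0 fell in LCR. Hjurp, the chaperone that loads Cenpa, rose by 0.21 ± 0.06 and 0.28 ± 0.06. The limma adjusted p-values of the partner changes that passed and are named here ran from 1.83e-09 for Ace in LCR to 0.044 for Cmtm8 in LCR.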

How the data were processed

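Lung RNA of 38 rats was measured on Affymetrix Rat Genome 230 2.0 arrays, 1 per animal, and groups were taken from the labels, which describe separate animals. The authors deposited 1 table of intensity on a linear scale, covering 31099 probe sets. How it was summarised and normalized is not stated in the sources at hand. Here 16 was added before log2, nothing was normalized again, no filter was set and 57 control probe sets were left out. Symbols come from the platform annotation, where 20826 probe sets had 1 symbol, 436 several and 9780 none. For a gene, the probe set with the highest mean was used where 1 is named.

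Group means (4) were estimated from all arrays together with limma 3.58.1 (R 4.3.3, 34 residual degrees of freedom, 35.9 with the prior), two-sided, with Benjamini-Hochberg adjustment over 31042 probe sets and a threshold of 0.05. Line differences of the 10 genes are given with SE and 95% intervals and no p. Correlations used values minus group means and 100000 permutations within groups, two-sided, in Python 3.11.15 with NumPy 2.4.6, SciPy 1.17.1 and pandas 2.3.3. Figures were drawn with matplotlib 3.10.9. The fit was tested on simulated data. The limma p-values set a difference of group means against the spread between animals within groups. Those of correlations come from permuting arrays within groups. The number of arrays limits the precision.

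The members and lists were chosen with earlier results of these data known. Named genes are all members, neighbours called in both line comparisons, and the 2 genes outside the list most like each member. Of the partners, all those called between lines are named. With smoke a part of the called partners is named, which does not follow their rank by adjusted p. Exceptions are stated in the text. Alternatives were quantile normalization, median centring, a pseudocount of 1, leaving out the lowest 0.25 of probe sets, 1 probe set per gene, an intensity trend with robust variance, leaving out arrays that stand apart, each array left out, and neighbourhoods of 3 and 10 genes. Those on partner genes were chosen after seeing the data.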

Additional observations from a re-analysis of the deposited data

Results flagged for a closer look

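Among 30 sets of 7 sham animals (15 probe sets in each line), 3 held an animal whose distance to its nearest neighbour was a large share of the range of the set, where chance gives about 1 in 20. Mis18a on HCR sham 0434, at 87.0, was the lowest of its group, with a gap of 0.695 of the range. Anks4b on LCR sham 0442, at 48.0, was the lowest of its group, with a gap of 0.731 of the range. This array had high heart muscle and smooth muscle markers. Enpep 1368513_at on HCR sham 0432, at 179, was the lowest of its group, with a gap of 0.633 of the range.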

How the results depend on the processing

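No line difference of a member probe set with an interval away from 0 changed direction under any alternative. With a pseudocount of 1 the low genes differed more (Mis18a -2.62 and -2.40). The other calls of single probe sets that were lost or gained are given in the report. The members called with smoke in HCR fell from 4 to 2 without HCR sham 0432 and 0433 and LCR sham 0442, and ranged from 2 to 5 with each array left out, and in LCR from 5 to 6. Probe sets called over the whole array ranged, with each array left out, from 724 (without HCR sham 0434) to 2391 (without HCR sham 0432) between lines under sham and from 851 (without LCR smoke 0426) to 2002 (without LCR smoke 0423) under smoke, against 1240 and 1284. For smoke the ranges were 11017 to 12579 in HCR and 11713 to 13898 in LCR. With 1 probe set per gene, where fewer are tested, 531 were called under sham, 6830 with smoke in HCR and 7193 in LCR. Between lines under smoke, 1938 were called without HCR sham 0432 and 0433 and LCR sham 0442, and 684 without HCR smoke 0410, 0414, 0415 and 0417. The share of higher calls moved with median centring from 43.6% to 63.4% (smoke in HCR), 46.1% to 70.6% (smoke in LCR) and 50.9% to 31.9% (lines under sham), and with quantile normalization from 69.5% to 56.3% (lines under smoke). With 10 genes on each side, of 161 neighbours 10 (6.21%) were called under sham, 14 (8.70%) under smoke and 2 (1.24%) under both. With 3 genes on each side, of 49 neighbours these were 4 (8.16%), 4 (8.16%) and 0. With quantile normalization, and without HCR sham 0432 and 0433 and LCR sham 0442, 7 of the 81 neighbours (8.64%) were called under smoke and 1 (1.23%) under both. The main setting gave 4 (4.94%) and 0. Partner genes called between lines were 5 under sham with median centring, and 1 under smoke with either scaling. Cklf 1385743_at and 1387956_s_at gave r = 0.34 with median centring (permutation test, adjusted p = 0.078) and r = 0.38 without HCR smoke 0410, 0414, 0415 and 0417 (adjusted p = 0.0668). Crym with Ldaf1 and Ldaf1 with Anks4b gave r = 0.52 and 0.56 without HCR sham 0432 and 0433 and LCR sham 0442, and 0.63 and 0.59 without HCR smoke 0410, 0414, 0415 and 0417, and passed in neither case. Of the other 42 pairs of members, 2 passed by r with quantile normalization and 1 without HCR sham 0432 and 0433 and LCR sham 0442, against 0. The cause of these shifts was not tested. No paired analysis was possible because the animal numbers differ between groups.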
